A study of Mus musculus with 25 samples.

Results

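The expression of 7 homeobox genes known from craniofacial development, Prrx1, Prrx2, Lhx6, Lhx8, Gsc, Mkx and Pitx1, was followed across the compartments of the E14.5 mouse palate. They are the rows of the deposited table that carry these symbols, 7 of 37406 genes. The rule that took these rows used no measured value, but the members were chosen with earlier results of these data known. The counts of members called below are therefore not those of a list drawn without regard to the data. The study had singled out Gsc on these same samples, so the direction of Gsc in the anterior palate is no independent evidence. It had also named Lhx6 and Lhx8 among strongly expressed transcription factor genes.

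RNA was isolated by laser capture microdissection from the palatal shelves of wild type CD1 mouse embryos at E14.5, the stage at which the shelves have just met at the midline, and was amplified and sequenced. The 25 libraries came from 8 compartments, a medial, a lateral, an oral and a nasal one in each of the anterior and posterior palate, with 3 libraries each except anterior nasal, which had 4. By the labels all groups shared the same genotype, strain and stage, and no mutant or treatment was compared. The study calls the replicates biological. The labels do not say which libraries came from the same embryo or how many embryos were pooled, so every p-value below measures the spread between these libraries, which may be technical and, where compartments came from the same embryo, not independent. In the fit of all posterior against all anterior libraries, that spread also includes the differences among compartments.

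Homeobox genes encode transcription factors that bind DNA through a homeodomain, whose typical core site is TAAT. Prrx1 and Prrx2 are closely related paired-class factors of facial mesenchyme, and mice that lack both show stronger craniofacial defects than mice that lack either. Lhx6 and Lhx8 are LIM-homeodomain factors of the neural crest mesenchyme around the mouth, and loss of Lhx8 gives cleft palate. Gsc (goosecoid) is a repressor of the paired-like class that is needed for bones of the jaw and nasal region. Mkx (Mohawk) is a TALE-class factor known from tendon development, and Pitx1 is a bicoid-related factor of the oral epithelium, the mandible and the hindlimb.

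In mm9, the genome build that the submitters' processing notes name, Prrx1 lies at chr1:165175250-165243781, Prrx2 at chr2:30700887-30736767, Lhx6 at chr2:35937473-35960928, Lhx8 at chr3:153969258-153993524, Gsc at chr12:105709419-105711446 and Pitx1 at chr13:55926415-55932786, as the table gives them. The position of Mkx is not given here. These spans are those of whole genes. The RefSeq promoter table (GRCm38.p6, a different build) matched 5 members, Prrx1, Prrx2, Lhx6, Lhx8 and Gsc. The 250 bases before the start are shown for Gsc, the member with the widest relative range of compartment means, and for the paralogues Prrx1 and Prrx2, of which each was called in a comparison where the other was not. All are written 5′ to 3′ on the gene's own strand, with TAAT and its reverse complement ATTA in capitals. They cover chr12:104473237-104473486 on the minus strand for Gsc, chr1:163313651-163313900 on the minus strand for Prrx1 and chr2:30845117-30845366 on the plus strand for Prrx2.
Gsc: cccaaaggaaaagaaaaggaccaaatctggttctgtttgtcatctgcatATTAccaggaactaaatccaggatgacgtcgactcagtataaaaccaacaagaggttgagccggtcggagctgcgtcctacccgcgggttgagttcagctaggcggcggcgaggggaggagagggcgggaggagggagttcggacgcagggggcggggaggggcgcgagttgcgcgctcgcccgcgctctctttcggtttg
Prrx1: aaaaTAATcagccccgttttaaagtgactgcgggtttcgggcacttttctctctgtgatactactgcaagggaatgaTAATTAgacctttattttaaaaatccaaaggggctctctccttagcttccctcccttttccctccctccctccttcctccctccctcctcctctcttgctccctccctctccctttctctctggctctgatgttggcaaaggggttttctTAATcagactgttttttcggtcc
Prrx2: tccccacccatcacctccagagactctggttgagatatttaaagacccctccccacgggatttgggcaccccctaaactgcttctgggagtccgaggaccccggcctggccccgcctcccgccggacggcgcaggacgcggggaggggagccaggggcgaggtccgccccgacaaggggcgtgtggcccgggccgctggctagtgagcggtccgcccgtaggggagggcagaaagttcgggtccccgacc
Counted on both strands and with overlaps, TAAT occurred 4 times before Prrx1, 1 time before Gsc and 0 times before Prrx2, and 54.9% of all 32851 promoters of this length hold it at least once. The longer palindrome TAATTA, which contains TAAT on both strands, occurred 1 time before Prrx1 and in neither of the others, against 4.84% of all promoters. TAATCC, the site typical of bicoid-related factors, was found in none of the 5 members' windows and in 6.25% of all promoters. The GC content was 70.0% before Prrx2, 59.2% before Gsc and 47.6% before Prrx1, with a median of 52.4% over all promoters. These are counts of letters in a window and say nothing of binding.

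Expression was given as RPKM (reads per kilobase of transcript and per M mapped reads). The values imply totals of 1.64 to 6.56 M reads per library behind the RPKM values, with a median of 3.27 M. The study states a higher average number of reads per sample and says that duplicate reads were removed. The reason for the gap was not tested. Of 8 markers of palatal mesenchyme, all except Msx1 were above 10 RPKM in every library, and their sum ranged from 636 to 1299 RPKM. The library labelled posterior medial replicate 2 stood apart, with 12935 genes above 0 and a median r of 0.652, across genes, to the other libraries of its compartment. The next lowest such r, 0.703, was that of anterior oral replicate 1, whose median r to all other libraries was 0.719. The libraries came from 8 sequencing runs, and all 3 anterior medial libraries were from a run that held none of the anterior lateral ones. In 6 libraries the alignment names carried ERK2_WT or Tgfbr2_WT, and the labels do not say what these names stand for or whether those embryos shared the strain background of the rest. Without these 6 libraries no comparison between compartments gained or lost a called member, other than posterior against anterior over all libraries.

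The median over the 25 libraries was 135 RPKM for Prrx1, 58.5 for Lhx8, 58.0 for Prrx2, 44.5 for Lhx6, 28.1 for Mkx, 12.7 for Gsc and 0.757 for Pitx1. Among the 11913 genes that reached 5 RPKM in 3 or more libraries, the median of Prrx1 was higher than those of 98.5%, and that of Gsc higher than those of 45.7%. Pitx1 met this minimum in no comparison and was added to each fit.

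**Figure D1:**
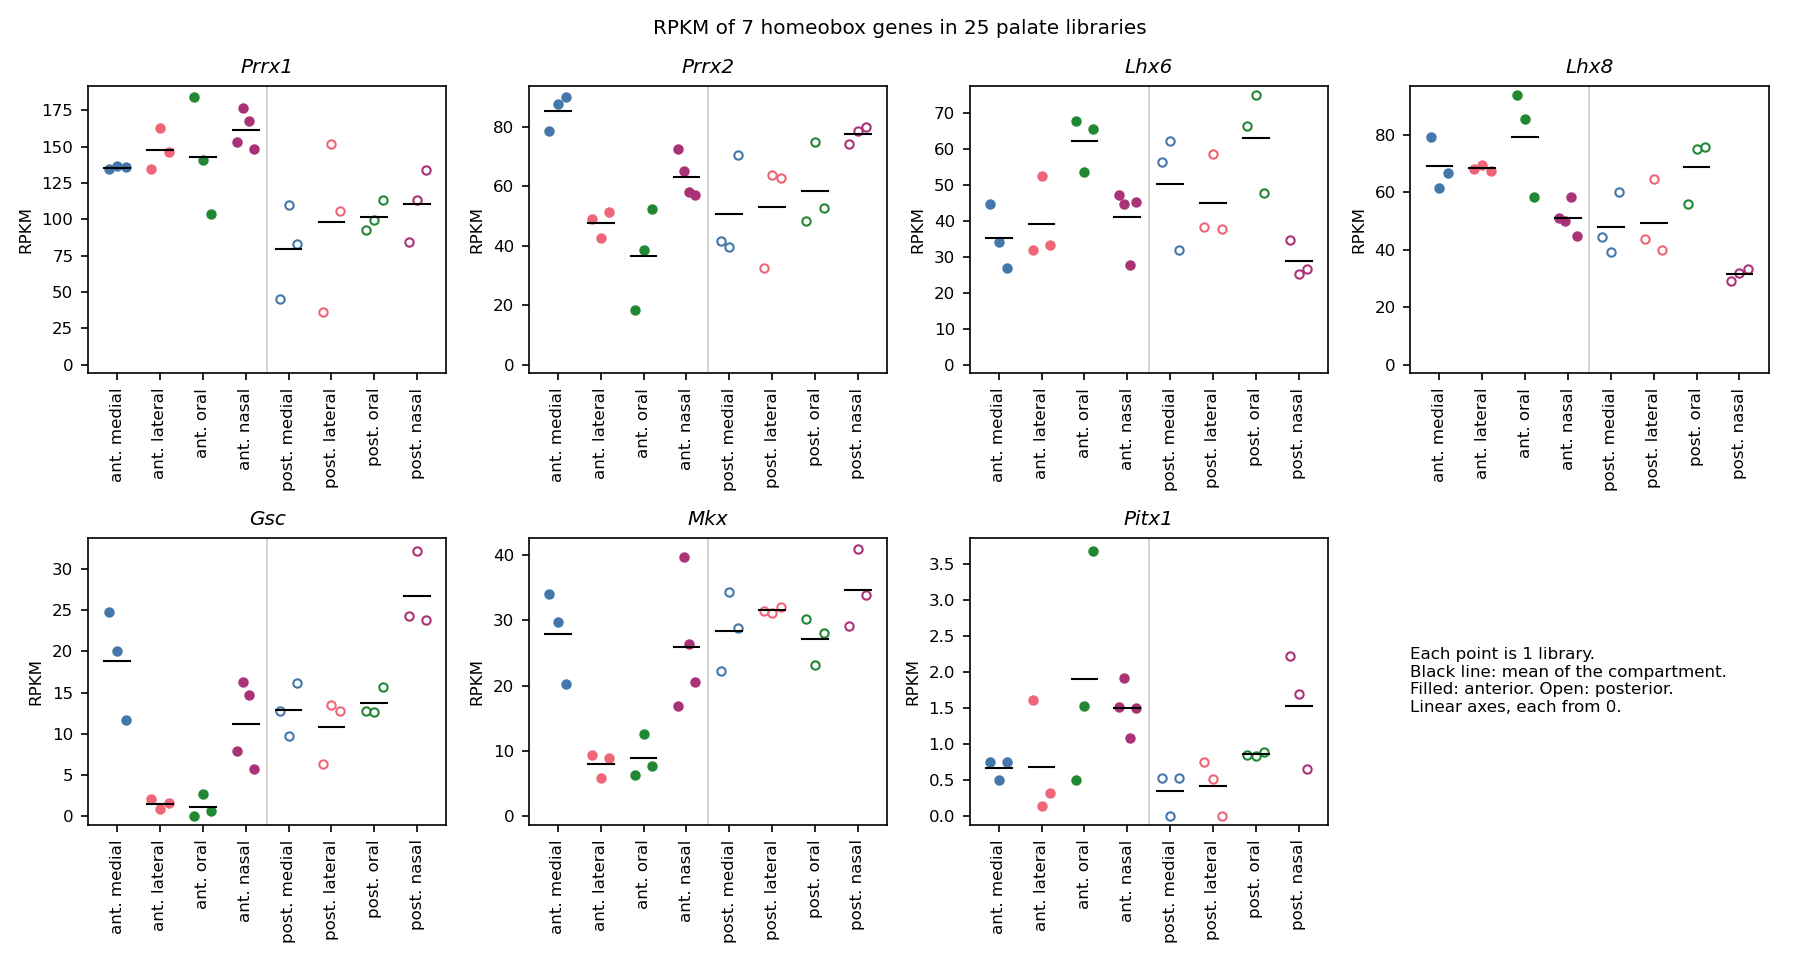
RPKM (y axis, linear, from 0, with its own scale for each gene) of the 7 genes in the 8 compartments (x axis). Each point is 1 library, black lines are compartment means, filled points are anterior and open points posterior; Gsc and Mkx were low in the 6 anterior lateral and anterior oral libraries and higher in all the others.

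Differences were tested with limma on log2(RPKM + 0.1), and a gene is said to have been called, to have risen or to have fallen where its adjusted p (Benjamini-Hochberg over all genes tested) was under 0.05. All fold changes and log2 differences below are on that scale, with the standard error (SE). In anterior lateral against anterior medial, 3 of the 7 members were called, all lower in lateral, against 2.51% of 10428 genes tested in either direction. In posterior lateral against posterior medial, anterior oral against anterior nasal and posterior oral against posterior nasal, 0 members were called, where the share of all genes called was 0%, 0% and 1.25%. Over all libraries, posterior against anterior, 2 members were called against 3.32% of 8609 genes. Posterior against anterior within a compartment, 2 members were called in lateral, where 1.39% of genes were, and 0 in medial, oral and nasal, where 0.106%, 0.179% and 2.21% were. A test for any difference among the 8 compartments called 3 members, Mkx (adjusted p = 0.000203), Gsc (0.000482) and Lhx8 (0.00863), against 4.41% of 11914 genes.

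**Figure D2:**
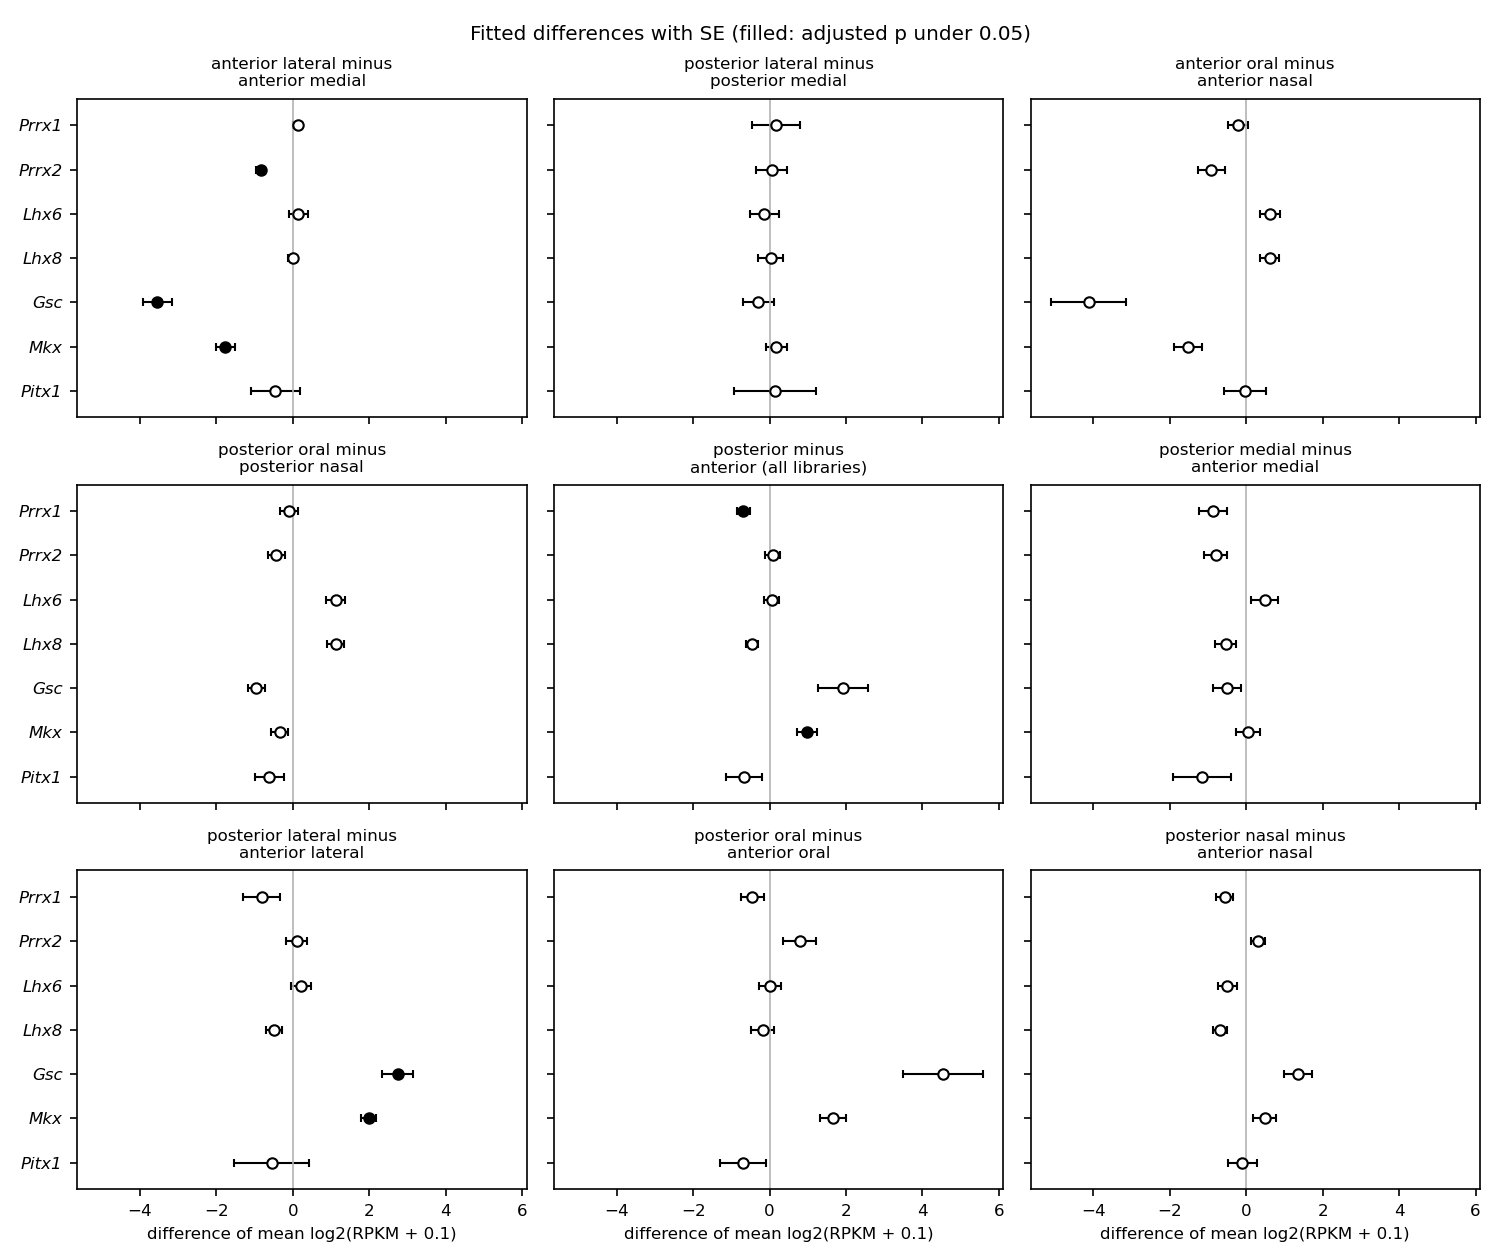
Fitted difference of mean log2(RPKM + 0.1) (x axis) for the 7 genes (y axis) in 9 comparisons, with bars of 1 SE and filled points where the adjusted p was under 0.05. Gsc and Mkx lay to the left in both anterior comparisons and to the right in posterior against anterior lateral and oral, and Lhx6 and Lhx8 lay to the right in both oral-nasal comparisons.

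Gsc and Mkx had the lowest adjusted p values of the 7 in the test among compartments, and both were lowest in anterior lateral and anterior oral. Gsc was at 2.14, 0.851 and 1.65 RPKM in the 3 anterior lateral libraries and at 24.8, 20 and 11.7 in the 3 anterior medial ones. Mkx was at 9.36, 5.91 and 8.98 RPKM in anterior lateral and at 34.0, 29.7 and 20.2 in anterior medial. For both genes every lateral library was below every medial one, as was true, in one direction or the other, of 21.3% of all genes tested. Gsc was lower in anterior lateral by a log2 difference of -3.54 (SE 0.37, adjusted p = 0.00448), an 11.7-fold change, and Mkx by one of -1.77 (SE 0.25, adjusted p = 0.0132), a 3.42-fold change. Bulk values cannot tell fewer cells of a type from less RNA per cell.

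The reads behind the low Gsc values were few. The values were whole multiples of what 1 read is worth, within 0.05 of a read, in 17 of the 24 libraries above 0, and imply 7, 3 and 5 reads in anterior lateral against 95, 77 and 45 in anterior medial. Gsc met the minimum of 5 RPKM only through the compartment in which it was higher, so that a difference was built into its entry to this comparison and to those of anterior oral with nasal and of posterior with anterior lateral and oral. Leaving out each library in turn, Gsc was called in 6 of 6 fits and Mkx in 5 of 6, with the exception of the fit without anterior medial replicate 2 (adjusted p = 0.0607). With the sequencing run as a term over all 25 libraries, the differences were -3.01 for Gsc and -1.53 for Mkx, with an adjusted p of 1.00 for each, and since no run held both compartments, run and compartment cannot be told apart here.

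Markers of other cell types moved with this comparison. The summed RPKM of 6 cartilage markers was 26.3 to 28.6 in anterior lateral and 77.5 to 126 in anterior medial, with 5 of the 6 lower in lateral on average. For 8 epithelial markers the sums were 26.6 to 93.4 and 101 to 162 (7 of 8 lower), for 7 nerve and Schwann cell markers 20.5 to 24.1 and 38.6 to 62.1 (2 of 7 lower), and for 6 endothelial markers 146 to 168 and 109.5 to 125 (0 of 6 lower). None of these markers was at 0 in all 6 libraries, and their part in the differences of Gsc, Mkx and Prrx2 was not tested.

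The anterior oral and nasal compartments gave a similar picture for both genes, without a call. Gsc was at 0, 2.69 and 0.650 RPKM in the 3 anterior oral libraries and at 7.88, 16.2, 14.7 and 5.79 in the 4 anterior nasal ones. Mkx was at 6.29, 12.7 and 7.73 RPKM in oral and at 16.9, 39.7, 26.3 and 20.5 in nasal. The compartments did not overlap for either gene, as for 3.67% of all genes tested. The log2 difference was -4.12 (SE 0.99, adjusted p = 0.761) for Gsc and -1.52 (SE 0.37, adjusted p = 0.761) for Mkx. The comparison called 0 of 10685 genes with limma, 318 had an unadjusted p under 0.05, and with all 25 libraries in 1 fit Gsc had an adjusted p of 0.0205 and Mkx one of 0.0511.

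The size of the Gsc difference in this comparison depended on the library at 0, anterior oral replicate 1, which was the shallowest of the 25. There 3 reads of Gsc, the limit that a count of 0 allows, would be 1.56 RPKM, still below the lowest nasal value of 5.79. Without that library the difference was -2.84 (adjusted p = 0.420), and with a pseudocount of 1 in place of 0.1 it was -2.63. Within each of the 3 runs that held both compartments, oral was below nasal for Gsc (-2.41, -2.97 and -6.84) and for Mkx (-1.05, -1.40 and -2.02). Cartilage markers were also lower in oral, with summed RPKM of 43.0 to 58.3 against 73.2 to 124, as were osteoblast markers, at 117 to 169 against 186 to 227. Their part in the result was not tested.

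**Figure D3:**
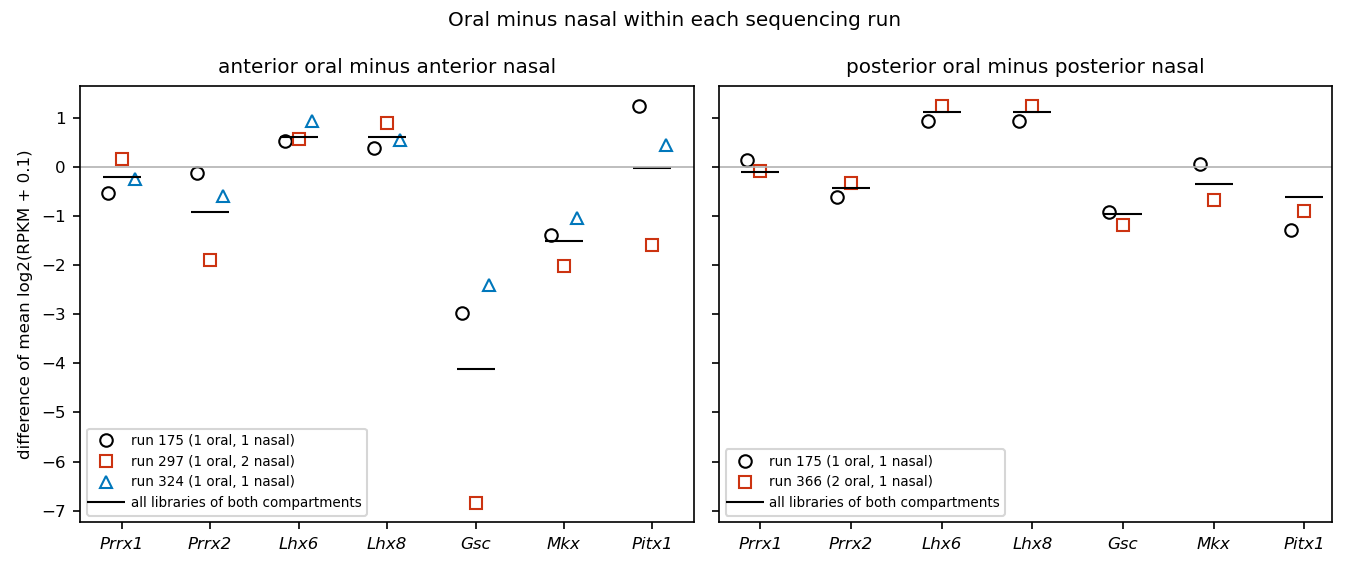
Difference of mean log2(RPKM + 0.1), oral minus nasal (y axis), of each gene (x axis) within each sequencing run that held both compartments, anterior on the left and posterior on the right, with the numbers of libraries in the legend and black bars for all libraries together. Gsc lay below 0 and Lhx6 and Lhx8 above 0 in each of the 5 run-by-region values shown.

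In the posterior palate Gsc and Mkx were present in every compartment. Gsc was at 6.31, 13.5 and 12.8 RPKM in posterior lateral and at 12.8, 9.79 and 16.1 in posterior medial, and the groups overlapped. Mkx was at 31.4, 31.2 and 32.1 RPKM in posterior lateral and at 22.2, 34.3 and 28.8 in posterior medial, which also overlapped. In this comparison the groups did not overlap for 6.62% of all genes. The lateral minus medial difference was -0.29 for Gsc (95% interval -1.26 to 0.68) and 0.17 for Mkx (-0.50 to 0.84). This comparison called 0 of 10325 genes with limma, and 159 had an unadjusted p under 0.05.

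An interaction term tested whether the medial-lateral difference was itself unequal in the anterior and posterior palate, and no member passed. The contrast was -3.25 (SE 0.59, adjusted p = 0.263) for Gsc and -1.94 (SE 0.37, adjusted p = 0.291) for Mkx, in a test that called 0.00902% of 11090 genes. For the oral-nasal difference it was -3.17 (SE 1.20) for Gsc and -1.17 (SE 0.46) for Mkx, with an adjusted p of 1 for each, where 0.035% of 11443 genes were called. The test thus did not show that either difference was lost in the posterior palate.

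Gsc was highest of all in posterior nasal, at 24.3, 32.2 and 23.8 RPKM, and was at 12.7, 12.7 and 15.7 in posterior oral. The 2 compartments did not overlap, as for 11.8% of genes tested, and the oral minus nasal difference was -0.95 (SE 0.22, adjusted p = 0.113). It was -0.92 and -1.18 within the runs that held both. In the order of its 8 compartment means, the single gap between neighbours whose libraries did not overlap lay between posterior lateral (10.9 ± 3.96, SD, n = 3) and anterior lateral (1.55 ± 0.65, n = 3). For Mkx the single such gap lay between anterior nasal (25.9 ± 10.03, n = 4) and anterior oral (8.89 ± 3.34, n = 3).

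Set against anterior lateral, both genes were higher in posterior lateral. Gsc differed by 2.74 (SE 0.41, adjusted p = 0.0306) and Mkx by 1.98 (SE 0.20, adjusted p = 0.0104). Without single libraries Mkx was called in 5 of 6 fits and Gsc in 1 of 6. The highest adjusted p values came without anterior lateral replicate 3, at 0.135 for Gsc and 0.0574 for Mkx, and Gsc was called only without posterior lateral replicate 1. In the run that held both compartments (1 anterior and 2 posterior libraries) the differences were 2.92 for Gsc and 1.80 for Mkx. With the run as a term over all 25 libraries they were of the same size but neither was called (adjusted p = 1.00 for Gsc and 0.483 for Mkx). Without posterior lateral replicate 1, which carries ERK2_WT in its name, they were 3.09 and 1.98. Cartilage markers summed to 60.3 to 85.0 RPKM in posterior lateral and 26.3 to 28.6 in anterior lateral, all 6 higher on average. Endothelial markers summed to 117 to 142 against 146 to 168 (6 of 6 lower) and nerve and Schwann cell markers to 13.3 to 15.2 against 20.5 to 24.1 (5 of 7 lower), and the part of these cell types was not tested.

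The same direction was seen in oral, where Gsc differed by 4.53 (SE 1.04, adjusted p = 0.335) and Mkx by 1.65 (SE 0.33, adjusted p = 0.223), without a call but with groups that did not overlap, as for 8.26% of genes. Gsc was called there with quantile normalization (adjusted p = 0.00389), and both genes were with all 25 libraries in 1 fit (0.00308 and 0.00880). In nasal, Gsc differed by 1.36 (SE 0.37, adjusted p = 0.0994) and its groups were separate, as for 20.3% of genes. Other cell types moved with these comparisons. Between posterior and anterior oral, summed RPKM was 73.9 to 117.4 against 43.0 to 58.3 for cartilage markers (5 of 6 higher), 186 to 203 against 117 to 169 for osteoblast markers (4 of 8), 130.2 to 135 against 82.8 to 106 for macrophage markers (7 of 7) and 842 to 1185 against 480.0 to 604 for red cell markers (8 of 8). Between posterior and anterior nasal, osteoblast markers summed to 479.8 to 669.9 against 186 to 227 (6 of 8 higher). Their part was not tested. In medial it was the other way for Gsc, at -0.51 (95% interval -1.41 to 0.40), and the groups overlapped. The median difference over all genes tested was -0.10 in medial, 0.12 in oral and 0.12 in nasal, and with each library centred on its median Gsc differed by -0.46, 4.41 and 1.23. These comparisons use the same libraries as those above and are not independent of them.

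Over all libraries Mkx was called higher in posterior, with a mean of 30.4 RPKM against 18.3 in anterior and a log2 difference of 0.98 (SE 0.27, adjusted p = 0.0377). The lowest posterior library, at 22.2, lay inside the anterior range of 5.91 to 39.7. The difference was not seen alike in every compartment. Beside 1.98 in lateral and 1.65 in oral, Mkx differed by 0.04 in medial (95% interval -0.73 to 0.80). In nasal it differed by 0.48 (-0.20 to 1.17), and in both medial and nasal the groups overlapped. The call over all libraries was kept in 10 of 25 fits that left out 1 library, with adjusted p values of 0.0120 to 0.0720. It was lost without any 1 library of anterior lateral, anterior oral or posterior nasal, without anterior nasal replicate 1, posterior lateral replicate 2 or 3, posterior medial replicate 3, or posterior oral replicate 1 or 3, and the adjusted p was 0.131 without the 6 libraries named ERK2_WT or Tgfbr2_WT. Gsc differed by 1.92 (SE 0.65, adjusted p = 0.119) in the same direction. This fit had no term for the compartment. With all 25 libraries in 1 fit, where each compartment was a group, the adjusted p was 0.00101 for Gsc and 0.000106 for Mkx.

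Lhx6 and Lhx8 were both higher in oral than in nasal. In the posterior palate Lhx8 was at 56.0, 75.2 and 75.8 RPKM in oral and at 29.2, 31.9 and 33.5 in nasal. Lhx6 was at 66.3, 74.9 and 47.7 RPKM in oral and at 34.5, 25.2 and 26.5 in nasal. Neither gene's compartments overlapped, as for 11.8% of genes tested. The difference was 1.12 for Lhx8 (SE 0.21, adjusted p = 0.0556) and 1.12 for Lhx6 (SE 0.25, adjusted p = 0.0974), a 2.17-fold change for each that did not pass the threshold. Lhx8 passed it under 4 other settings, with the lowest adjusted p, 0.0210, when all 25 libraries shared 1 fit. Within runs the differences were 0.93 and 1.24 for Lhx8 and 0.94 and 1.24 for Lhx6.

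Other cell types differed between these 2 posterior compartments. Osteoblast markers summed to 479.8 to 669.9 RPKM in posterior nasal and 186 to 203 in posterior oral, and 7 of the 8 were lower in oral on average. Endothelial markers summed to 127 to 177 in oral and 52.2 to 90.3 in nasal, all 6 higher in oral, macrophage markers to 130.2 to 135 and 61.3 to 119.6, all 7 higher, and red cell markers to 842 to 1185 and 424 to 761, all 8 higher. Whether this bears on Lhx6 and Lhx8 was not tested.

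In the anterior palate the direction was the same and the estimates were smaller, but a change along the axis was not shown. The interaction contrast, anterior minus posterior, was -0.51 for Lhx8 (95% interval -1.18 to 0.17) and -0.50 for Lhx6 (-1.28 to 0.28). Lhx8 was at 93.8, 85.4 and 58.5 RPKM in oral and at 51.0, 49.95, 58.5 and 44.9 in nasal, which overlapped. Lhx6 was at 67.5, 53.5 and 65.4 RPKM in oral and at 47.0, 44.5, 27.8 and 45.2 in nasal, which did not overlap, as for 3.67% of genes tested. The difference was 0.61 for Lhx8 (SE 0.25) and 0.62 for Lhx6 (SE 0.27), with an adjusted p of 1.00 for each. All 3 runs gave a positive value, from 0.38 to 0.89 for Lhx8 and from 0.53 to 0.94 for Lhx6.

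Along the medial-lateral axis neither LIM gene was called. Lhx8 stood at 68.1, 69.6 and 67.5 RPKM in anterior lateral and at 79.3, 61.7 and 66.8 in anterior medial, with a difference of -0.01 (95% interval -0.31 to 0.29). Lhx6 differed by 0.15 (SE 0.25) there. Along the anterior-posterior axis Lhx8 was lower in posterior, at a mean of 49.5 ± 16.4 RPKM (SD, n = 12) against 65.8 ± 14.2 (n = 13), a difference of -0.45 (SE 0.16, adjusted p = 0.135) that did not pass. With all 25 libraries in 1 fit, where each compartment was a group, its adjusted p was 0.0099. Within compartments the groups did not overlap for Lhx8 in medial, lateral and nasal, where the share of all genes that did not was 11.9%, 18.9% and 20.3%. Lhx6 differed by 0.05 over all libraries (SE 0.19). In the order of compartments, no neighbouring pair was separate for Lhx6, which ran from 62.9 ± 13.9 RPKM in posterior oral to 28.8 ± 5.04 in posterior nasal.

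Prrx1 and Prrx2 were both at or above 18.3 RPKM in every library. Prrx2 was at 49.0, 42.5 and 51.2 RPKM in anterior lateral and at 78.4, 87.7 and 90.1 in anterior medial, and the compartments did not overlap, as for 21.3% of genes tested. The log2 difference, lateral minus medial, was -0.84 (SE 0.13, adjusted p = 0.0169), a 1.80-fold change. The call was weak: it held in 1 of 6 fits without a single library, the one without anterior medial replicate 1, the adjusted p was 0.0691 without anterior lateral replicate 2, 0.0619 with the replicate number as a block and 0.843 with all 25 libraries in 1 fit. Prrx1 stood at 135, 163 and 146 RPKM in anterior lateral and at 135, 136 and 136 in anterior medial, a difference of 0.12 (SE 0.12, adjusted p = 0.714).

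Prrx2 was also the lower in anterior oral, at 18.3, 38.5 and 52.4 RPKM, than in anterior nasal, at 72.6, 65.0, 58.0 and 56.9. The groups did not overlap, as for 3.67% of genes tested. The difference was -0.91 (SE 0.36, adjusted p = 1.00), and it was -0.48 without anterior oral replicate 1. In posterior nasal Prrx2 was at 74.2, 78.6 and 80.0 RPKM, second in mean only to anterior medial. In posterior oral it was at 48.2, 74.9 and 52.5, which overlapped posterior nasal.

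Prrx1, in contrast, was called lower in posterior. Its 13 anterior libraries ran from 103 to 184 RPKM with a median of 146, and its 12 posterior libraries from 36.1 to 152 with a median of 103. The ranges overlapped. The log2 difference was -0.69 (SE 0.18, adjusted p = 0.0236), a 1.61-fold change, and the call held in each of the 25 fits that left out 1 library. The lowest values, 36.1 in posterior lateral replicate 1 and 45.0 in posterior medial replicate 1, were those of the 2 libraries named ERK2_WT. Without the 6 libraries named ERK2_WT or Tgfbr2_WT the difference was -0.43 (adjusted p = 0.0366), and with the sequencing run over all 25 libraries it was -0.42 (adjusted p = 0.394).

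Within runs, posterior Prrx1 was lower than anterior on average in all 4 compartments that a run allowed to be compared, from few libraries. The differences were -0.50 in medial (2 posterior and 3 anterior libraries), -0.20 in lateral (2 and 1), -0.16 in oral (1 and 1) and -0.82 in nasal (1 and 1). In lateral the anterior library, at 146 RPKM, lay between the posterior ones, at 152 and 106. The compartments taken one at a time gave no call, with differences of -0.87 (SE 0.37) in medial, -0.82 (SE 0.49) in lateral, -0.45 (SE 0.30) in oral and -0.57 (SE 0.21) in nasal. Prrx2 was not called, with a difference of 0.08 over all libraries (SE 0.21, adjusted p = 0.907), although it was -0.80 (SE 0.30, adjusted p = 0.831) in medial. That the 2 paralogues responded differently along the axis was not tested.

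Pitx1 was the weakest member and rested on few reads in most libraries. It was at 0 in 2 libraries, posterior lateral replicate 3 and posterior medial replicate 2, where 3 reads would be 0.526 and 0.521 RPKM, and its highest value was 3.68 RPKM in anterior oral replicate 3. The values imply 0 to 59 reads, with a median of 7. The 4 anterior nasal libraries were at 1.51, 1.91, 1.09 and 1.51 RPKM, and the 3 posterior oral ones at 0.849, 0.833 and 0.886. No comparison called it, and the intervals were wide: posterior minus anterior was -0.68 (95% interval -1.64 to 0.28), which includes a difference of the size seen for Lhx8. Its better-known sites, such as the oral epithelium, were captured here only as far as epithelial markers show, whose sums ran from 21.2 to 227 RPKM.

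Across the 25 libraries, the gene whose log2 level followed Gsc most closely among those that reached 5 RPKM in 3 or more libraries was Mkx, and the gene closest to Mkx was Gsc, with r = 0.912 (rho = 0.785). The libraries fell into separate clusters. Within the 6 anterior lateral and oral libraries r was 0.73, within the other 19 it was 0.573, and without the 2 libraries farthest from the median of Gsc it was 0.918. Next to Gsc came S1pr3, a receptor for sphingosine-1-phosphate (r = 0.879), and Eya4, a transcriptional coactivator (r = 0.84). Next to Mkx came Gdf10, a ligand of the TGF-beta family (r = 0.866), and Eya4 (r = 0.864). Libraries share their depth, run and section between genes, so these values describe the samples and carry no test.

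**Figure D4:**
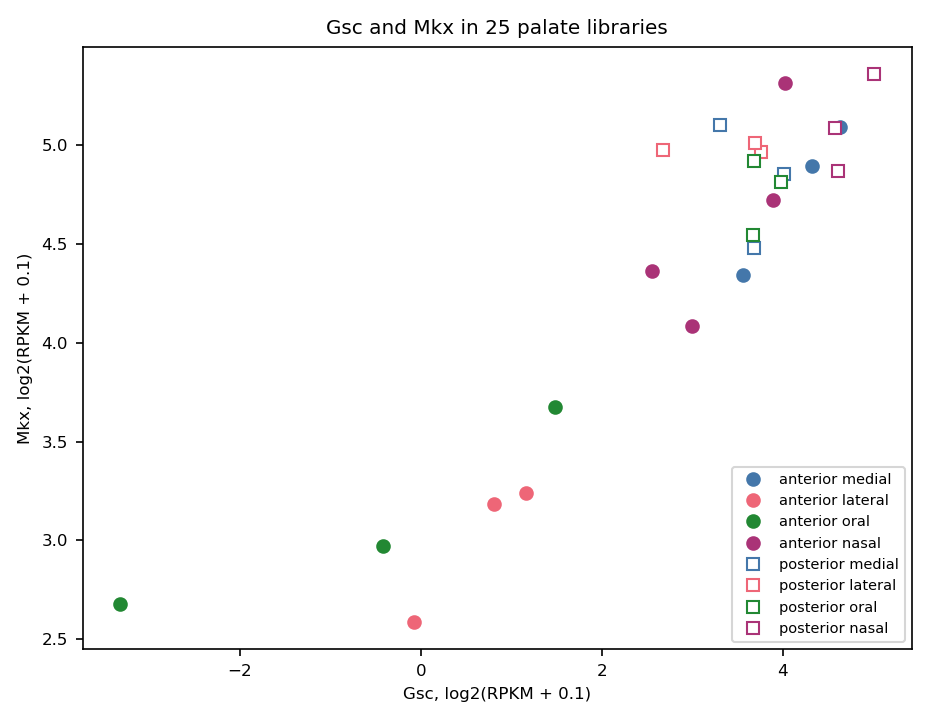
Mkx (y axis) against Gsc (x axis), both as log2(RPKM + 0.1), in the 25 libraries, with filled circles for anterior and open squares for posterior compartments. The 6 anterior lateral and anterior oral libraries lie apart at the lower left, and the other 19 lie together at the upper right.

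For the remaining members the closest genes were less close. They were Cd300a, Vcam1 and 5031426D15Rik for Prrx1 (r = 0.862, 0.846 and 0.836), Gm166, Fbln2 and Nfatc1 for Prrx2 (0.881, 0.853 and 0.852), Nxph1, Vwa5a and Cd93 for Lhx8 (0.813, 0.799 and 0.779) and Sec22c, Sox10 and Mfng for Lhx6 (0.755, 0.743 and 0.727). For Pitx1 they were Hsdl1, Zfp385c and Gm13238 (0.74, 0.739 and 0.735). Among the members themselves, Prrx1 and Prrx2 had r = 0.136, which was 0.617 within the 19 libraries, -0.731 within the 6 and -0.303 without the 2 libraries farthest from the median of Prrx1, and Lhx6 and Lhx8 had r = 0.379. Prrx2 and Gsc had r = 0.75, with 0.574 within the 19 and 0.819 within the 6.

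Relatives of the members were read from lists of genes. Of 22 other paired-class genes, 3 met the minimum for posterior against anterior, and 2 were lower in posterior, Alx1 with a difference of -5.77 (SE 0.41, adjusted p = 4.22e-10) and Shox2 with one of -3.66 (SE 0.60, adjusted p = 0.000289), both known for the anterior face and palate. Of 10 other LIM-homeobox genes none met the minimum in any comparison, and only Lmx1a, with up to 11.1 RPKM, reached 5 RPKM in any library. Of 9 genes listed as LIM cofactors, 6 were tested and Lmo4 rose in posterior by 1.06 (SE 0.25, adjusted p = 0.0128). Of 17 other TALE genes, 9 were tested in anterior lateral against medial, with a median difference of 0.01 beside -0.03 over all genes tested.

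Tendon genes, listed beside Mkx, were called in both directions. Of 16, 12 were tested in anterior lateral against medial. Keratocan (Kera), a matrix proteoglycan, was higher in lateral by 2.23 (SE 0.34, adjusted p = 0.0179), whereas the matrix proteins Thbs2 and Tnc were lower in lateral, at -1.64 (SE 0.14, adjusted p = 0.00223) and -0.82 (SE 0.13, adjusted p = 0.0192), and the other 9 were not called. Their median was 0.19. Over all libraries, 11 were tested in posterior against anterior, where Mkx had risen. Col14a1 was lower in posterior, at -3.06 (SE 0.38, adjusted p = 7.36e-06) and Col1a1 rose by 0.46 (SE 0.12, adjusted p = 0.0319). In posterior against anterior lateral, where Mkx was also called, Thbs2 was the 1 called of 12, higher in posterior by 1.66 (SE 0.19, adjusted p = 0.0147).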

How the data were processed

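Laser captured compartments of the palate were profiled by RNA-Seq, from RNA amplified with a NuGen system, tagmented with Nextera and sequenced on an Illumina HiSeq instrument. The authors deposited RPKM values for 37406 genes in 25 libraries. Per the study's methods they used GeneSpring and removed duplicate reads and reads that aligned to several places, and the submitters' processing notes name TopHat and mm9. Since no counts were used, the implied totals of reads were worked out from ratios of values that stem from few reads and from transcript lengths in GENCODE. They are estimates, and floors drawn from them cover counting error only. No column of samples was left unused (0), and 0 pairs of libraries were identical.

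Groups and replicate numbers were taken from the labels, and the sequencing run from the alignment names. A gene was tested where 3 or more of the compared samples reached 5 RPKM (6 samples and 10 RPKM for all posterior against all anterior libraries). Tests were run with limma (version 3.58.1, R 4.3.3) after a log2 transformation with a pseudocount of 0.1, and p-values were adjusted by Benjamini-Hochberg over all genes tested. Members under the minimum were added to each fit. Compared compartments were fitted alone, and the test among 8 compartments used all 25 samples. All posterior against all anterior libraries were fitted with posterior and anterior as the only groups, without a term for the compartment. The alternative with all 25 samples in 1 fit had each compartment as a group. The fits were tested on simulated data. Tables and figures used Python 3.11.15, numpy 2.4.6, pandas 2.3.3 and matplotlib 3.10.9. The members and the lists of relatives and markers were chosen with earlier results of these data known. Named were all 7 members, the 3 genes most like each by Pearson r over the 25 libraries and, per list of relatives and direction, at most 3 called genes, those that changed most. Markers of other cell types were summed. The result of 1 called gene of these lists is not reported here.

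Alternatives were pseudocounts of 1 and 0.01, centring on the median, quantile normalization, a mean-variance trend, no filter, another minimum, the replicate number as a block, all 25 samples in 1 fit with and without the run, and leaving out each library. Chosen after seeing the data were the run as a covariate in the fits of oral against nasal and the omission of the 6 libraries named ERK2_WT or Tgfbr2_WT. The replicate numbers were read as pairs where the deviations of same-numbered samples from their group means had r over 0.1 across genes in every pair. This held in anterior oral against anterior nasal (r of 0.13 to 0.239) and in no other pair of compartments. There the pairing rests on that check, not on the labels. Of these libraries, those numbered 1 shared a sequencing run, and those numbered 2 and 3 did not. Libraries of unlike number were not compared, so the check cannot show that the numbers mark pairs.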

Additional observations from a re-analysis of the deposited data

Results flagged for a closer look

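In anterior nasal, the only compartment with enough libraries to look for single outlying values, Lhx6 in replicate 3 was far below the others. It stood at 27.8 RPKM against 44.5, 45.2 and 47.0 in the other 3 libraries, a gap of 0.867 of the whole range, which is above Dixon's 95% critical value for 4 samples. Chance marks about 1 in 20 groups in this way, and 7 genes were looked at. Without this library the difference of Lhx6 between anterior oral and nasal was 0.44, against 0.62 with it, and it was called in neither case. Lhx8 had its highest anterior nasal value, 58.5 RPKM, in the same library.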

How the results depend on the processing

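The number of members called, out of 7, depended on the processing. Anterior lateral against medial called 3, but 1 without the filter, 0 with the sequencing run over all 25 samples and 1 to 3 with single libraries left out, 1 being without anterior medial replicate 2. Anterior oral against nasal called 0, and 1 (Gsc) with all 25 samples in 1 fit. Posterior oral against nasal called 0, and 1 (Lhx8) with a pseudocount of 1, quantile normalization, a mean-variance trend or all 25 samples in 1 fit. Posterior against anterior over all compartments called 2, but 1 without the filter, 4 with all 25 samples in 1 fit, 1 with the run, 1 without the libraries named ERK2_WT or Tgfbr2_WT and 1 to 2 with single libraries left out. Within a compartment it called 2, but 3 with quantile normalization or all 25 samples in 1 fit, 1 without the filter, 0 with the run and 0 to 2 with single libraries left out, 0 being without anterior lateral replicate 3. The test among 8 compartments called 3, but 1 (Gsc) with the run. Posterior lateral against medial and both interactions called 0 under every alternative run. The causes were not tested.

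With the replicate number as a block, posterior against anterior called 1 over all compartments and 1 within a compartment, anterior lateral against medial 2, and anterior oral against nasal, the comparison in which the numbers were taken as a pairing, 0. Of 28 tests of a member with an unadjusted p under 0.05, none of 594 values under the alternatives changed sign, while 85 of 967 did in the 49 other tests. The run could not be fitted within the medial and lateral pairs alone. With 3 libraries per compartment and a median of 3.27 M implied reads per library, small differences may not be detectable. The same holds for those of Pitx1, at a median of 7 implied reads.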
